A study of Mus musculus with 6 samples.

Results

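The 37 genes described here are a list of cell cycle and proliferation genes chosen by name, and all 37 were found among the 46012 genes with 1 entry each in the table of every library. They comprised 9 genes that act at the start of the cycle (the D and E cyclins, their kinases and E2f1), 9 genes of DNA replication, and 19 genes of mitosis. The rule names the genes and uses no measured value, although the list was drawn up with earlier results of these data known. They were read in RNA immune-precipitation sequencing (RIP-seq) of mouse left ventricles, in which the RNA pulled down by an antibody against EZH2, the histone methyltransferase of Polycomb repressive complex 2, is sequenced beside the RNA pulled down by normal IgG. All animals were male and 10 weeks old, with no genetic alteration given by the labels. The Sham mice, untreated by the labels and infused with saline by the study's methods, were compared with mice that received Angiotensin II (AngII) by osmotic minipump at 1 mg/kg/min for 4 h (AngII 4 h) or for 24 h (AngII 24 h). The strain was labelled C57BL/6 in 4 libraries, C57BL/7 in the AngII 4 h anti-EZH2 library and C57BL/8 in the AngII 24 h anti-EZH2 library, and these labels were not resolved. Each group had 2 mice, whose 2 RIP products were mixed into 1 library per antibody, so that there were 6 libraries and no replicate of any group within an antibody.

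A cell that enters the cycle first raises D cyclins, which bind Cdk4 and Cdk6 and phosphorylate the retinoblastoma protein, and this releases E2F factors to switch on the genes of DNA replication. Genes of mitosis are switched on later by FoxM1 and B-Myb with the MuvB complex. Most adult cardiomyocytes no longer divide, and in the adult heart transcripts of replication and mitosis are known mainly from the few endothelial cells, fibroblasts and leukocytes that do. Left ventricle tissue is a mixture, so that fewer cells of a type and less RNA per cell cannot be told apart.

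The values are FPKM, fragments divided by the length of the transcript and by the depth of the library, and each has an interval in the files. The libraries held between 3796546 (AngII 24 h IgG) and 7964113 (AngII 4 h anti-EZH2) fragments, as recovered from the steps between low values, and between 55.1% and 62.8% of protein-coding genes were above 0 FPKM. Mitochondrial genes held 31.3% of the FPKM of the AngII 24 h anti-EZH2 library and between 6.73% and 13.9% of the others. The cardiomyocyte markers (Myh6, Tnnt2, Tnni3, Myl2, Actc1 and Ryr2) were above 1 FPKM in every library, with sums between 4691 and 8237 FPKM. For a gene with several transcripts, the fragments behind an FPKM are given as the number that its longest annotated transcript would need, which is an upper limit. On the shortest transcript the same FPKM can need far fewer fragments. In all fragment counts and in the intervals, only counting and assignment error is covered, not the difference between mice.

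Most cell cycle genes lay near or at 0 in these ventricles, and the signal of the list came from the start of the cycle. Of the 37 genes, 6 had a mean of at least 1 FPKM over the 6 libraries (Ccnd1, Ccnd2, Ccnd3, Cdk4, Pcna and Mcm7), 3 lay between 0.5 and 1 (Cdk6, Mcm6 and Tpx2), and 28 were lower. The median of these means was 0.853 FPKM for the start of the cycle, 0.334 FPKM for DNA replication and 0.155 FPKM for mitosis. By these medians the start of the cycle was highest and mitosis lowest, but the 3 groups overlapped, with 4 of the 9 genes of the start of the cycle below 0.5 FPKM. Above 0 FPKM were 26, 29 and 18 of the 37 genes with IgG (Sham, AngII 4 h, AngII 24 h) and 28, 29 and 19 with anti-EZH2. Both AngII 24 h libraries held the fewest, and these were also the shallowest library of each antibody. Only 11 genes were above 0 in all 6 libraries, Aurkb was listed at 0 in every library, and Plk1 and Aurka, kinases of mitotic entry and of the spindle poles, were above 0 in the AngII 24 h anti-EZH2 library alone, with 1 and 2 reads.

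**Figure D1:**
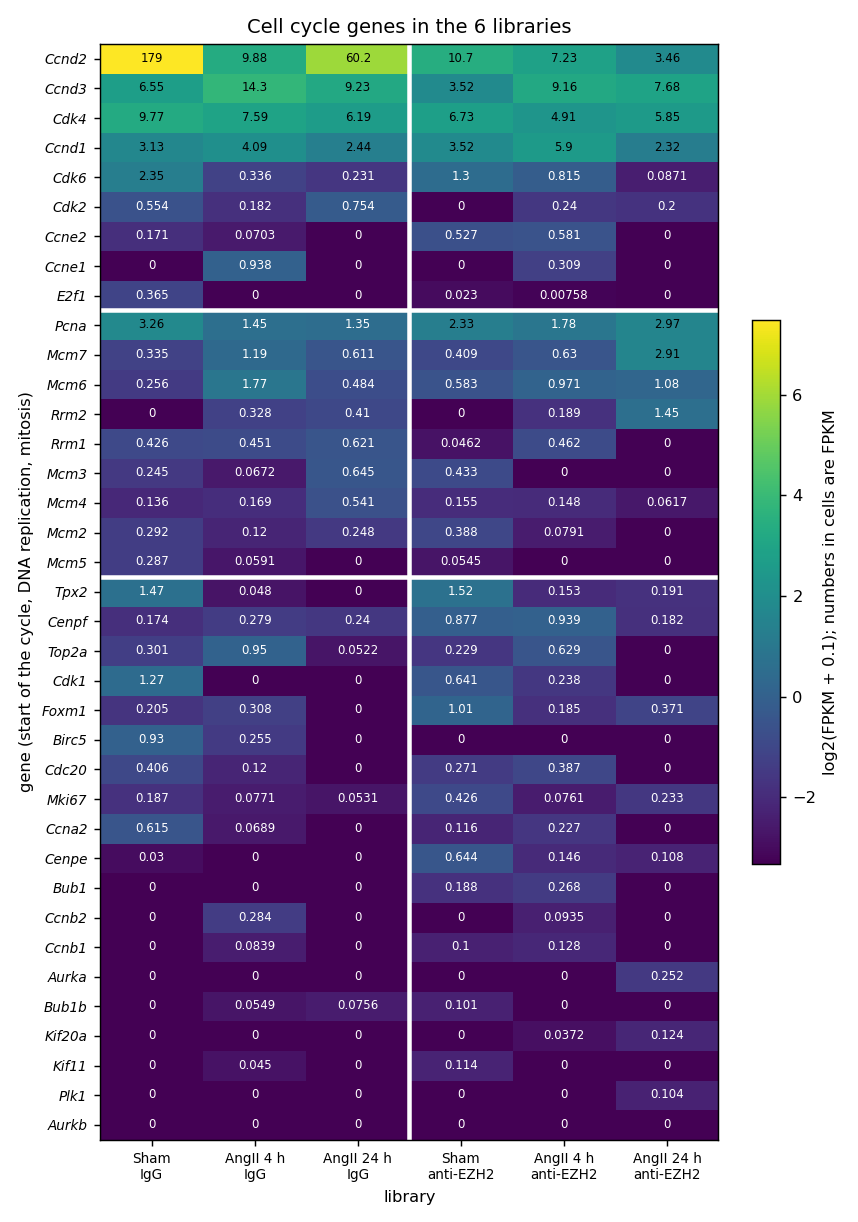
Heat map of the 37 genes (rows, ordered by mean level within the start of the cycle, DNA replication and mitosis) in the 6 libraries (columns, IgG left and anti-EZH2 right), with colour for log2(FPKM + 0.1) and the FPKM printed in each cell. The D cyclins and Cdk4 fill the top rows in every library, and of the 19 mitosis genes 4 are above 0 in the AngII 24 h IgG library.

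The mitosis genes also shared letters upstream of their transcription starts that the choice of the list did not use. The 250 bases before the start were read from RefSeq promoters (GRCm38.p6, the assembly of mm10), with an entry for 28 of the 37 genes, among them 14 of 19 mitosis genes, 8 of 9 replication genes and 6 of 9 genes of the start of the cycle. Both strands were searched for the CCAAT box, for the cell cycle homology element TTTGAA, and for the E2F site in its form TTCCCGC, in the variant TTCGCGC, in a further variant TTGCCGC and in the last variant TTGGCGC, motifs that can overlap but do not contain each other. A CCAAT box stood upstream of 13 of the 14 mitosis genes (92.9%) and of all 8 replication genes, and upstream of 37.5% of all 27025 genes with an entry. TTTGAA was found in 6 of the 14 mitosis genes (42.9%; Ccnb2, Cdk1, Mki67, Top2a, Cdc20 and Kif11), in 1 of the 8 replication genes, and in 18.3% of all genes. The E2F letters were found in 5 of the 8 replication genes (62.5%; Mcm5, Mcm6, Mcm7, Rrm1 and Rrm2), in 3 of the 14 mitosis genes (21.4%), in 1 of the 6 genes of the start of the cycle (Cdk2), and in 9.01% of all genes. These are counts of letters in a window and not of bound sites. The starts are those of the RefSeq entries, and for E2f1, Cdk6 and Mcm7 the windows lay inside the annotated span of the gene. That of E2f1 was chr2:154569427-154569676, within chr2:154559407-154569892 on the minus strand. For these 3 genes the bases before the outermost start were not read, and the lack of a motif does not cover them. Shown are 5 genes that were past 2-fold in 1 direction in both antibodies at AngII 24 h against Sham, chosen with their values known, namely Cdk1 (chr10:69352913-69353162, minus strand), Top2a (chr11:99024190-99024439, minus strand) and Cdc20 (chr4:118437344-118437593, minus strand) of mitosis, Rrm2 (chr12:24708004-24708253, plus strand) of replication and Cdk6 (chr5:3343643-3343892, plus strand) of the start of the cycle, written 5′ to 3′ up to the start, with the motifs of either strand in capitals:
Cdk1: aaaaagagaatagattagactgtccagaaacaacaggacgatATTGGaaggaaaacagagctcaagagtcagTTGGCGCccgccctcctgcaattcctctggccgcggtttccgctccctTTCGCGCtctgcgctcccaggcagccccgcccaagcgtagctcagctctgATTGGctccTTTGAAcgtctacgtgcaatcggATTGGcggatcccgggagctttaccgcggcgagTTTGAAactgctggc
Top2a: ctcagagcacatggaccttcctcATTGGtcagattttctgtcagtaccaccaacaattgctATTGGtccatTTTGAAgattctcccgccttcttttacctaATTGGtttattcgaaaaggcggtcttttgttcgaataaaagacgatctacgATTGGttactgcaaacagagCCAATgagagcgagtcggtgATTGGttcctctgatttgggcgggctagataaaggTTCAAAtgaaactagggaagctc
Cdc20: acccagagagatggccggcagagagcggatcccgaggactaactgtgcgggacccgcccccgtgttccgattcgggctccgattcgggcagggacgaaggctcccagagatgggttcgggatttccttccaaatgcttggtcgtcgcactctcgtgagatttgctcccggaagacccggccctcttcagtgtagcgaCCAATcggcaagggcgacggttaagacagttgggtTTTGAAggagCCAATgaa
Rrm2: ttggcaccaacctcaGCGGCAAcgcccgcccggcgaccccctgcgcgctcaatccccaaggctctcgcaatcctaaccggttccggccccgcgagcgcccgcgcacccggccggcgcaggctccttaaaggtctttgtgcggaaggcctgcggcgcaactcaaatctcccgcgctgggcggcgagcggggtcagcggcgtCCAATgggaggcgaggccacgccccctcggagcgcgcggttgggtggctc
Cdk6: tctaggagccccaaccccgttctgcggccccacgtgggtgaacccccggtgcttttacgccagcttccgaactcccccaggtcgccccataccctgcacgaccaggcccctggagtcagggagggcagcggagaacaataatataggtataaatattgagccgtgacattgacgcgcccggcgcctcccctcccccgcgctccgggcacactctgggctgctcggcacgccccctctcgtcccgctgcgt
Cdk1 carried all 3 motifs, Top2a and Cdc20 carried TTTGAA with the CCAAT box, Rrm2 the E2F letters with the CCAAT box, and Cdk6 none of them. At AngII 24 h Rrm2 was higher than in Sham and the others were lower. Of the 5 genes, Cdk6 alone reached a mean of 0.5 FPKM, and the others rest on few fragments. A link between the motifs and the differences after AngII was not tested.

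To read the course after AngII, the groups were compared within each antibody, and a gene was taken as higher or lower where the ratio of FPKM + 0.1 was past 2-fold in the same direction in both antibodies. Both antibodies of a group came from the same 2 mice, so that they repeat the handling and not the animals, and no test is possible. Of the 37 genes, 9 reached the mean of 0.5 FPKM required for this comparison, as did 11444 genes in all. At AngII 4 h against Sham, Ccnd3 was higher and Tpx2 lower, 2 of 9 genes, where 8.43% of all 11444 genes were past 2-fold (5.35% higher and 3.08% lower). At AngII 24 h against Sham, Ccnd2, Cdk6 and Tpx2 were lower, 3 of 9 genes, and none was higher, where 8.10% of all genes were past 2-fold (3.89% higher and 4.21% lower). No member was past 2-fold in both antibodies at AngII 24 h against AngII 4 h, where 6.52% of all genes were (1.99% higher and 4.53% lower). With FPKM divided by the median ratio of each library, 3.12% of all genes were higher and 4.95% lower in the first comparison, 3.41% and 5.12% in the second, and 2.89% and 3.39% in the third. With 9 genes, 1 gene more or less moves the share by more than the whole background. Tpx2 was above 0.5 FPKM in the Sham libraries alone, and Cdk6 in these and in AngII 4 h anti-EZH2. Their Sham values thus carried them past the filter, which favours calls as lower after AngII. The deposited intervals of the groups overlapped in at least 1 antibody for every called gene. Without any scaling the median log2 difference of all 11444 genes was 0.15 in IgG and 0.31 in anti-EZH2 at AngII 4 h against Sham, and 0.17 and -0.10 at AngII 24 h against Sham. Between the AngII times it was 0.01 in IgG and -0.46 in anti-EZH2.

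**Figure D2:**
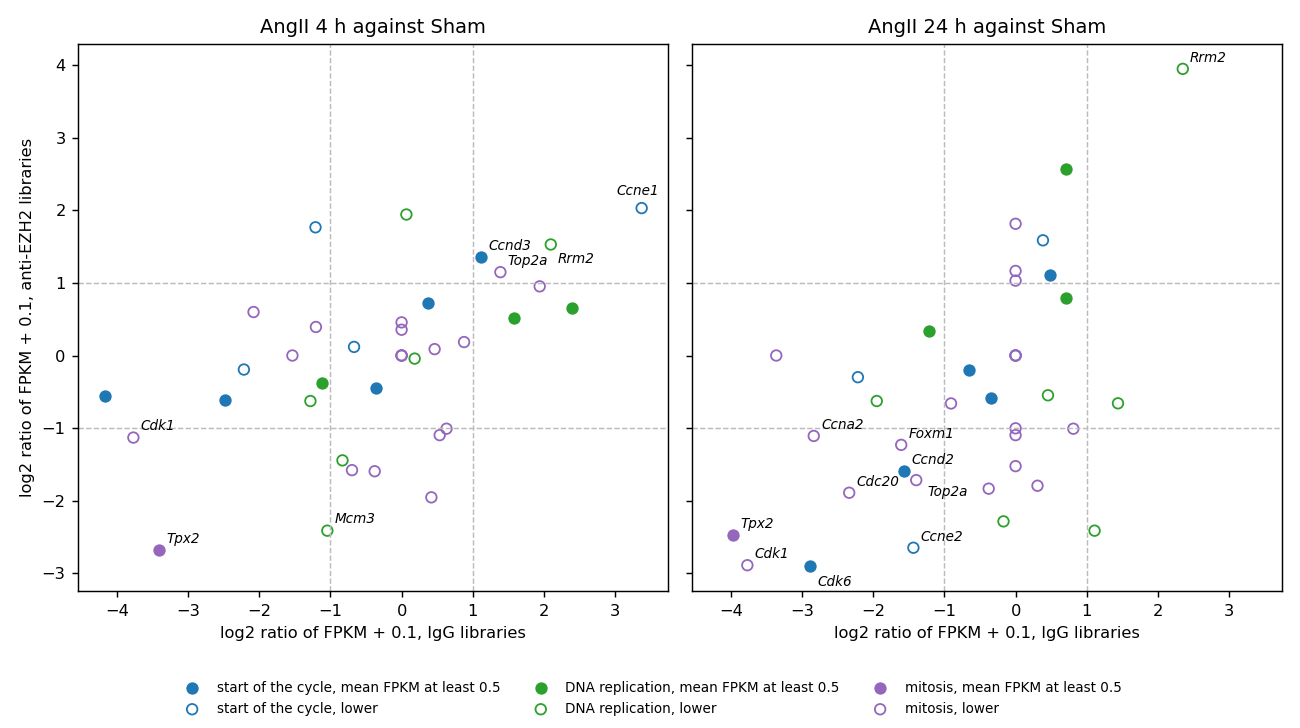
Log2 ratio of FPKM + 0.1 of AngII 4 h (left) and AngII 24 h (right) to Sham, in the IgG libraries (x axis) and the anti-EZH2 libraries (y axis), for the 37 genes coloured by role. Filled points have a mean of at least 0.5 FPKM, dashed lines mark 2-fold, and named points are past 2-fold in the same direction in both antibodies. At AngII 24 h the filled points Tpx2, Cdk6 and Ccnd2 lie at the lower left.

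Among the D cyclins, which link growth signals to the cycle, Ccnd3 was the member that stood higher after AngII. Ccnd3 (chr17:47505051-47599691) had 6.55, 14.3 and 9.23 FPKM in Sham, AngII 4 h and AngII 24 h with IgG, and 3.52, 9.16 and 7.68 FPKM with anti-EZH2. It was highest at AngII 4 h and lowest in Sham with both antibodies, by log2 differences of 1.12 and 1.36, which is 2.19-fold and 2.60-fold in FPKM. The interval of the AngII 4 h IgG library was 8.23 to 20.3 FPKM and that of Sham IgG 2.48 to 11.7 FPKM, so that they overlapped. Divided by the median ratio of each library the differences were 0.88 and 0.96 and no longer past 2-fold. In the series table, a second set of FPKM that the authors normalized separately, they were 0.63 and 1.29, and Ccnd3 was highest at AngII 24 h there, with 6.87 FPKM in IgG and 12.5 FPKM in anti-EZH2.

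Ccnd1 (chr7:144929931-144939869) had 3.13, 4.09 and 2.44 FPKM in Sham, AngII 4 h and AngII 24 h with IgG, and 3.52, 5.90 and 2.32 FPKM with anti-EZH2. Its order, AngII 4 h over Sham over AngII 24 h, was the same with both antibodies, but no difference from Sham was past 2-fold and the intervals overlapped. The differences at AngII 4 h in the series table were -0.05 and -0.07. Cdk4 (chr10:127063534-127067920), the kinase partner of the D cyclins, varied least among the 9 genes of the comparison, with 9.77, 7.59 and 6.19 FPKM in IgG and 6.73, 4.91 and 5.85 FPKM in anti-EZH2. Cdk4 was below Sham in all 4 AngII libraries by log2 differences between -0.65 and -0.20, none past 2-fold, but in the series table the AngII 24 h anti-EZH2 difference was 0.65.

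Cdk6 (chr5:3341485-3531008), the other kinase partner of the D cyclins, was lower at AngII 24 h. It had 2.35, 0.336 and 0.231 FPKM in Sham, AngII 4 h and AngII 24 h with IgG and 1.30, 0.815 and 0.0871 FPKM with anti-EZH2, and thus stepped down in the order of the groups with both antibodies. Its log2 difference from Sham at AngII 24 h was -2.88 in IgG and -2.91 in anti-EZH2. At most 115 and 83.7 fragments in Sham stood against 9.95 and 4.69 fragments at AngII 24 h. On the shortest annotated transcript the Sham values would need 1.78 and 1.30 fragments. The deposited intervals reached up to 2.77 FPKM at AngII 24 h and overlapped those of Sham. The differences in the series table were -1.72 and -2.16, from Sham levels of 0.573 and 0.556 FPKM. At AngII 4 h Cdk6 was past 2-fold in IgG (-2.49) and not in anti-EZH2 (-0.62).

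Ccnd2 (chr6:127125162-127152193) had the highest and the least certain values of the list. It stood at 179, 9.88 and 60.2 FPKM in Sham, AngII 4 h and AngII 24 h with IgG, and at 10.7, 7.23 and 3.46 FPKM with anti-EZH2. The interval of the Sham IgG library ran from 3.81 to 406 FPKM and that of AngII 24 h IgG from 3.57 to 203 FPKM. Ccnd2 has 8 annotated transcripts of 115 to 6330 nt, and the Sham IgG value needs up to 4735 fragments on the longest but 24.2 on the shortest, so that its FPKM rests on how reads were shared between transcripts. The log2 differences at AngII 24 h against Sham were -1.57 in IgG and -1.60 in anti-EZH2, but in the series table -0.02 and -3.39. No direction is therefore drawn for Ccnd2 after AngII.

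**Figure D3:**
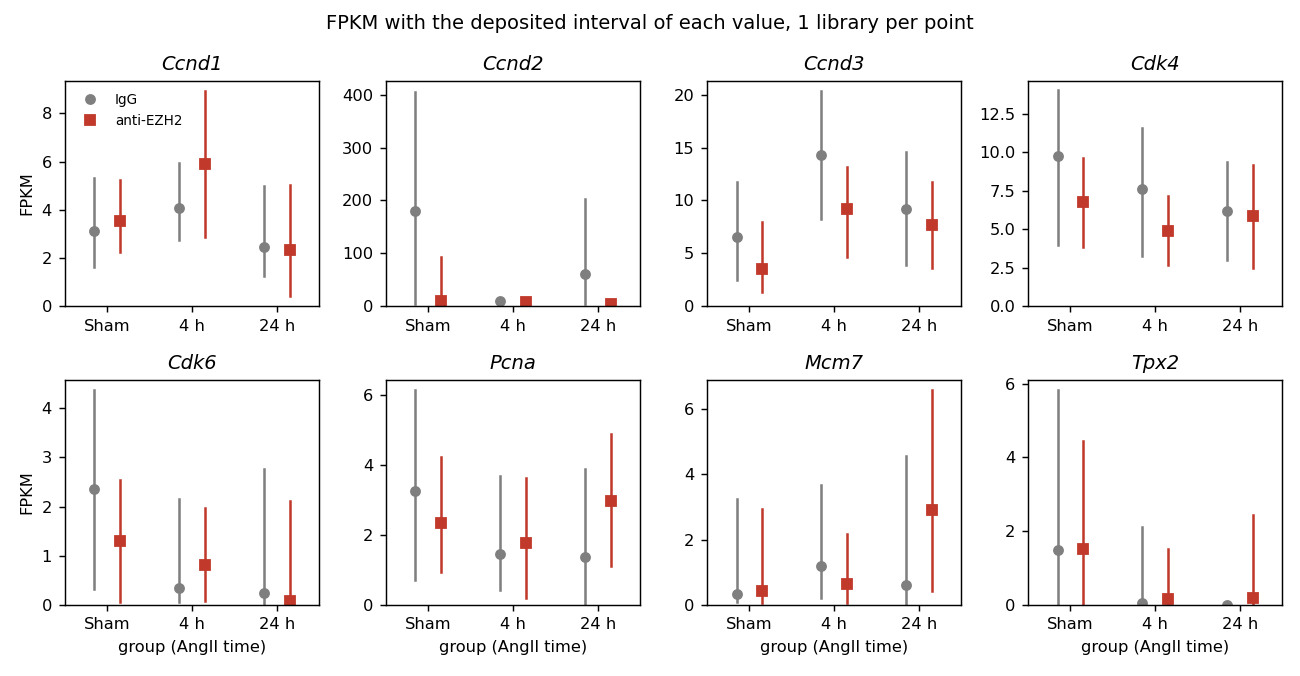
FPKM (y axis, from 0, with its own scale in each panel) in Sham, AngII 4 h and AngII 24 h (x axis) for 8 genes, with 1 library per point (grey circles IgG, red squares anti-EZH2) and the deposited interval of each value as a line. Ccnd3 peaks at AngII 4 h with both antibodies, Cdk6 and Tpx2 are highest in Sham, and the Ccnd2 intervals in Sham and AngII 24 h IgG span most of their panel.

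The other genes of the start of the cycle were too low for the comparison. Cyclin E1 (Ccne1), which activates Cdk2 at the entry into S phase, was above 0 at AngII 4 h alone, with 0.938 FPKM in IgG and 0.309 FPKM in anti-EZH2, from at most 8.8 and 4.4 fragments. Cyclin E2 (Ccne2) had 0.171, 0.0703 and 0 FPKM in Sham, AngII 4 h and AngII 24 h with IgG and 0.527, 0.581 and 0 FPKM with anti-EZH2. Both E cyclins were thus listed at 0 in both AngII 24 h libraries. Cdk2 lay between 0 and 0.754 FPKM with no common order, and E2f1, an activating E2F, reached 0.365 FPKM in Sham IgG and at most 0.023 FPKM elsewhere.

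The genes of DNA replication did not share a course after AngII. None of the 3 that reached the mean of 0.5 FPKM was past 2-fold in both antibodies in any comparison, although Pcna was past 2-fold lower at AngII 4 h against Sham in the series table (log2 differences of -2.20 and -1.04). Pcna (chr2:132249162-132253314), the sliding clamp of the DNA polymerases, had 3.26, 1.45 and 1.35 FPKM in Sham, AngII 4 h and AngII 24 h with IgG, and 2.33, 1.78 and 2.97 FPKM with anti-EZH2. The highest library was Sham with IgG and AngII 24 h with anti-EZH2. This did not hold in the series table, where Pcna had 2.04, 0.366 and 0.607 FPKM with IgG and 1.34, 0.599 and 0.662 FPKM with anti-EZH2, so that Sham was highest and AngII 4 h lowest with both. Mcm6 (chr1:128331590-128359664) and Mcm7 are subunits of the MCM helicase that unwinds DNA. Mcm6 had 0.256, 1.77 and 0.484 FPKM with IgG and 0.583, 0.971 and 1.08 FPKM with anti-EZH2. Mcm7 (chr5:138164583-138172422) had 0.335, 1.19 and 0.611 FPKM with IgG and 0.409, 0.630 and 2.91 FPKM with anti-EZH2. Both subunits were lowest in Sham with both antibodies, while the highest library was AngII 4 h with IgG and AngII 24 h with anti-EZH2. In the series table Mcm6 with anti-EZH2 had 0.352 FPKM in Sham and 0.298 FPKM at AngII 4 h, so that Sham was not lowest there. At AngII 4 h the log2 differences of Mcm6 and Mcm7 from Sham were 2.39 and 1.57 in IgG but 0.65 and 0.52 in anti-EZH2. The difference of Mcm7 at AngII 24 h was 0.71 in IgG and 2.56 in anti-EZH2, the latter from at most 6.41 against 38.2 fragments.

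The other subunits of the helicase did not follow Mcm6 and Mcm7. Mcm4, whose values were whole reads in every library, had 2, 3 and 7 reads in Sham, AngII 4 h and AngII 24 h with IgG and 3, 4 and 1 reads with anti-EZH2, and at AngII 24 h against Sham the exact 95% interval of the ratio per sequenced fragment was 0.757 to 39.2 in IgG and 0.008 to 4.95 in anti-EZH2. Mcm2, Mcm3 and Mcm5 were listed at 0 in the AngII 24 h anti-EZH2 library, in which Mcm7 was highest. The summed FPKM of the 9 replication genes was 5.24, 5.61 and 4.91 with IgG and 4.40, 4.26 and 8.47 with anti-EZH2.

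Rrm2, the regulated subunit of ribonucleotide reductase that supplies deoxynucleotides, was the replication gene listed at 0 in Sham and found in all AngII libraries. It had no signal in either Sham library, and had 0.328 and 0.410 FPKM at AngII 4 h and AngII 24 h with IgG and 0.189 and 1.45 FPKM with anti-EZH2. These values came from at most 3.43, 3.10, 2.99 and 13.7 fragments, and 3 fragments in Sham would be 0.35 FPKM with IgG and 0.266 FPKM with anti-EZH2. The AngII 24 h anti-EZH2 value, with an interval from 0 to 3.61 FPKM, was the highest, and the other 3 values were close to the level of 3 fragments. Rrm1, the other subunit, had 0.426, 0.451 and 0.621 FPKM with IgG and 0.0462, 0.462 and 0 FPKM with anti-EZH2, and showed no such order.

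The mitosis genes were, as a sum over the list, highest in Sham and lowest at AngII 24 h with both antibodies. Their summed FPKM was 5.59, 2.57 and 0.421 with IgG (Sham, AngII 4 h, AngII 24 h) and 6.23, 3.51 and 1.57 with anti-EZH2. By AngII 24 h the sum was 13.3 times lower than in Sham with IgG and 3.98 times lower with anti-EZH2. Above 0 FPKM were 10, 12 and 4 of the 19 genes with IgG and 13, 13 and 8 with anti-EZH2. Gene by gene, the median log2 difference from Sham at AngII 4 h was 0 with both antibodies. There 7 genes were higher and 7 lower with IgG, and 8 higher and 7 lower with anti-EZH2. At AngII 24 h the median was 0 with IgG (2 higher, 9 lower) and -1.10 with anti-EZH2 (3 higher, 13 lower). The lower sum at AngII 4 h was thus not shared by most genes of the list. In fragments the list held at most 99.5, 64.5 and 13.9 with IgG and 203, 162 and 41.1 with anti-EZH2, and divided by the fragments of the library the AngII 24 h number was 6.29 times lower than that of Sham with IgG and 4.15 times lower with anti-EZH2. On shorter transcripts all these fragment numbers would be lower. Without Tpx2 and Cdk1, an alternative chosen after seeing the data, the sums were 6.77 and 2.96 times lower at AngII 24 h, and those of AngII 4 h were 0.886 and 0.765 of Sham. In the series table the sum at AngII 24 h was 16.6 times lower than Sham with IgG and 2.42 times lower with anti-EZH2, and the anti-EZH2 sum at AngII 24 h was 1.10 times that at AngII 4 h, so that the step between the AngII times depends on the table there.

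Low genes in general were not lower at AngII 24 h than in Sham with IgG, and with anti-EZH2 they were lower by less than the mitosis genes. Among 6444 protein-coding genes with a mean above 0 and below 0.5 FPKM, also chosen after seeing the data, 49.4%, 61.4% and 51.9% were above 0 in Sham, AngII 4 h and AngII 24 h with IgG, and 57.3%, 68.3% and 46.2% with anti-EZH2. The summed FPKM of these low genes at AngII 24 h was 1.14 times that of Sham with IgG and 0.842 times with anti-EZH2. The list has 19 genes and these libraries have no replicates, so the difference in course is given as values with no test.

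**Figure D4:**
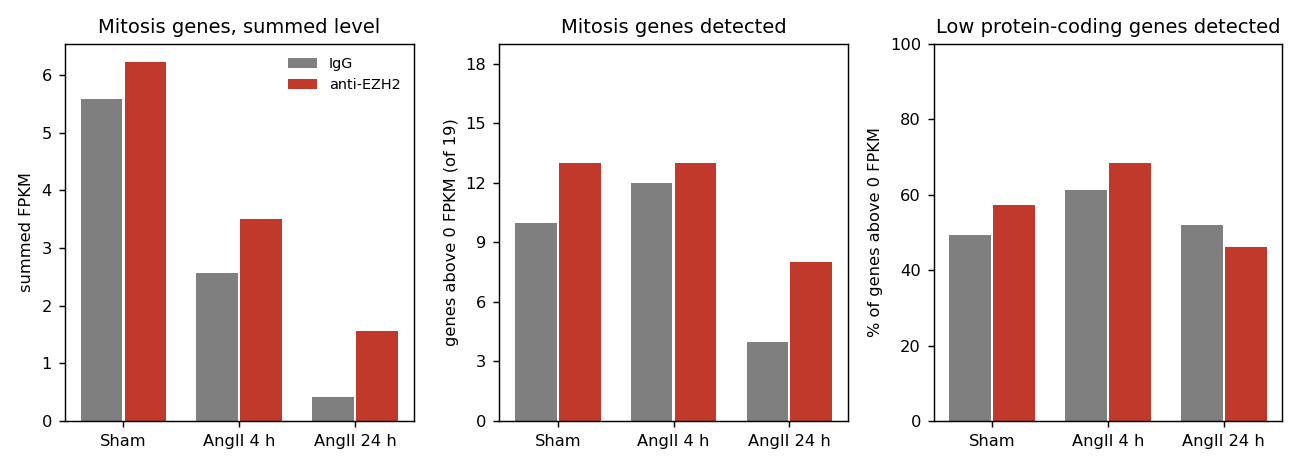
Summed FPKM of the 19 mitosis genes (left), the number of them above 0 FPKM (middle) and the percentage of 6444 low protein-coding genes above 0 FPKM (right) in Sham, AngII 4 h and AngII 24 h, with IgG in grey and anti-EZH2 in red, 1 library per bar. The mitosis sum steps from 5.59 to 0.421 with IgG and from 6.23 to 1.57 with anti-EZH2, while between 46.2% and 68.3% of low genes are detected in each library.

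Tpx2, which activates Aurora A and nucleates spindle microtubules, was the one mitosis gene with a mean over 0.5 FPKM and, of the 9 members that reached that mean, the one past 2-fold in both antibodies at both AngII times against Sham. Tpx2 (chr2:152847964-152895321) had 1.47, 0.048 and 0 FPKM in Sham, AngII 4 h and AngII 24 h with IgG and 1.52, 0.153 and 0.191 FPKM with anti-EZH2. Both Sham libraries lay above all 4 AngII libraries, with at most 26.5 and 35.8 fragments against between 0 and 5.06. On the shortest annotated transcript the Sham values would need 1.02 and 1.37 fragments. Tpx2 reached the mean of 0.5 FPKM through these Sham values alone, so that the filter itself favoured a lower value after AngII. The log2 differences at AngII 4 h were -3.41 and -2.68, and in the series table -3.03 and -2.75. Those at AngII 24 h were -3.98 and -2.47, of which the former depends on the added 0.1 since Tpx2 was listed at 0 there. The deposited intervals of Tpx2 began at 0 in every library and reached 5.82 FPKM in Sham IgG, so that no group was apart from another by them.

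Cdk1, the kinase that drives entry into mitosis, had 1.27, 0 and 0 FPKM in Sham, AngII 4 h and AngII 24 h with IgG and 0.641, 0.238 and 0 FPKM with anti-EZH2. It was highest in Sham with both antibodies and listed at 0 in both AngII 24 h libraries, where 3 fragments would be 0.189 and 0.151 FPKM. On the shortest transcript its Sham values would need 0.971 and 0.648 fragments. Its partner cyclin B1 (Ccnb1) did not exceed 0.128 FPKM in any library and was listed at 0 in both AngII 24 h libraries too. Cyclin A2 (Ccna2) had 0.615, 0.0689 and 0 FPKM with IgG and 0.116, 0.227 and 0 FPKM with anti-EZH2.

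Top2a, the topoisomerase that untangles chromosomes, took another course from Cdk1 and Tpx2. It had 0.301, 0.950 and 0.0522 FPKM in Sham, AngII 4 h and AngII 24 h with IgG, and 0.229, 0.629 and 0 FPKM with anti-EZH2. The AngII 4 h library was the highest with both antibodies, with at most 25 and 25.1 fragments against 6.51 and 6.52 in Sham and 0.995 and 0 at AngII 24 h. On the shortest transcript of Top2a the AngII 4 h values would need 1.98 fragments with either antibody. Mki67, the common marker of cycling cells, had 0.187, 0.0771 and 0.0531 FPKM with IgG and 0.426, 0.0761 and 0.233 FPKM with anti-EZH2. Its highest library was Sham with both antibodies, and its deposited interval in Sham anti-EZH2 (0.261 to 0.592 FPKM) lay above that of AngII 4 h anti-EZH2 (0.0249 to 0.137 FPKM), while the intervals of Sham and AngII 4 h overlapped with IgG. In the series table Mki67 with anti-EZH2 had 0.249 FPKM both in Sham and at AngII 24 h, so that Sham did not stand out from AngII 24 h there. Foxm1, the activator of mitosis genes, had 0.205, 0.308 and 0 FPKM with IgG and 1.01, 0.185 and 0.371 FPKM with anti-EZH2, with no common order beyond AngII 24 h being below Sham.

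The remaining mitosis genes were carried by few fragments, with the possible exception of Cenpf. Cenpf, a kinetochore protein with at most 54.4 and 81.7 fragments in Sham and AngII 4 h anti-EZH2, was the one of them above 0 in all libraries, with 0.174, 0.279 and 0.240 FPKM with IgG and 0.877, 0.939 and 0.182 FPKM with anti-EZH2. On its shortest transcript the fragments of Sham and AngII 4 h anti-EZH2 would be 0.796 and 1.20. Its relative Cenpe, the kinesin of the kinetochore, had at most 28.2 fragments in Sham anti-EZH2 and at most 1 in the IgG libraries. Birc5 (survivin) was above 0 only in Sham and AngII 4 h IgG, with 0.930 and 0.255 FPKM. Cdc20, the activator of the anaphase-promoting complex, had at most 4.9 fragments in any library and was listed at 0 in both AngII 24 h libraries. The checkpoint kinases Bub1 and Bub1b, the kinesins Kif11 and Kif20a and cyclin B2 (Ccnb2) stayed at or below 0.284 FPKM in every library. For Aurka, Bub1b, Ccnb2, Kif11, Kif20a and Plk1, whose values were whole reads throughout, between 1 and 4 reads were found over all 6 libraries, and the exact 95% interval of each ratio between groups that could be formed held 1. So few reads could not have given an interval that excludes 1, and nothing is drawn from it.

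Below the mean of 0.5 FPKM, 5 more members were past 2-fold in both antibodies at AngII 4 h against Sham (higher Ccne1, Rrm2 and Top2a, lower Cdk1 and Mcm3) and 7 more at AngII 24 h against Sham (higher Rrm2, lower Ccna2, Ccne2, Cdc20, Cdk1, Foxm1 and Top2a). At AngII 24 h against AngII 4 h, Ccne1, Cdc20 and Top2a were lower. With no filter on low values the calls came to 7, 10 and 3 of 36 members in these comparisons, beside 7.66%, 7.16% and 6.39% of 22139 genes. These differences rest on the added 0.1 as much as on the few fragments behind them and are given as a description.

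Among other genes of the pathway, the inhibitors of cyclin-dependent kinases did not move as a group. Of 7 inhibitor genes, 5 reached the mean of 0.5 FPKM. Against Sham, 1 was higher and 0 lower at AngII 4 h, where 5.35% and 3.08% of all 11444 genes were. At AngII 24 h 2 were higher and 0 lower, where 3.89% and 4.21% of all genes were. Cdkn1c (p57) had 0.401, 1.58 and 1.86 FPKM in Sham, AngII 4 h and AngII 24 h with IgG and 0.311, 1.41 and 1.24 FPKM with anti-EZH2. All 4 AngII libraries were above both Sham libraries, from at most 2.93 and 3.00 fragments in Sham to between 9.99 and 19 after AngII. The log2 differences of Cdkn1c from Sham were 1.74 and 1.87 after 4 h, then 1.97 and 1.70 after 24 h, and they stayed past 2-fold in the series table (1.09, 1.11, 3.10 and 3.15). Cdkn1b (p27) had 1.64, 1.74 and 3.51 FPKM with IgG and 0.324, 2.17 and 1.73 FPKM with anti-EZH2. Its log2 differences at AngII 24 h were 1.05 and 2.11, but 0.80 in IgG after division by the median ratio and 0.87 in the series table. Cdkn2d (p19) was past 2-fold lower at AngII 24 h against AngII 4 h, 1 of 5 genes, where 4.53% of all genes were lower. Its log2 differences were -1.17 in IgG and -4.22 in anti-EZH2, where it was listed at 0, and 0.08 and -3.02 in the series table. Against Sham its differences at AngII 24 h were -0.95 and -2.57, and after division by the median ratio they were past 2-fold (-1.19 and -2.86). With this scaling 1 inhibitor gene was thus higher (Cdkn1c) and 1 lower, where 3.41% and 5.12% of all genes were.

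Of 16 genes of the RB family and E2F, 8 reached the mean of 0.5 FPKM. The DP partners of E2F, Tfdp1 and Tfdp2, were higher at AngII 4 h against Sham, 2 of 8 genes, where 5.35% of all genes were. Tfdp1 had 0.925, 2.41 and 1.22 FPKM with IgG and 0.351, 1.25 and 0.837 FPKM with anti-EZH2, with differences at AngII 4 h of 1.29 and 1.59. Those of Tfdp2 were 1.21 and 1.65, but -0.36 in IgG in the series table. No gene of this list was past 2-fold against Sham at AngII 24 h, where 8.10% of all genes were.

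Of 17 genes of origin licensing and firing, 7 reached the mean. Orc2, of the origin recognition complex, and Gins4, of the GINS complex, were higher at AngII 4 h against Sham, 2 of 7 genes, where 5.35% of all genes were. Gins4 has 1 annotated transcript and had 0.398, 1.80 and 1.58 FPKM with IgG and 0.302, 1.29 and 0.360 FPKM with anti-EZH2. Orc2 differed by 2.43 and 3.12, but by -0.41 in IgG in the series table. It was lower at AngII 24 h against AngII 4 h, by -3.01 and -2.39, where 4.53% of all genes were lower. Its AngII 4 h values (2.23 FPKM with IgG and 5.17 FPKM with anti-EZH2) raised the mean on which the filter rests, which favours both of these calls. Gins1 was lower at AngII 24 h against Sham, where 4.21% of all genes were, by -2.06 and -1.58, from at most 5.93 fragments in Sham IgG. With anti-EZH2 it was listed at 0 at AngII 24 h, so that the latter difference depends on the added 0.1.

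Of 28 other mitosis genes, 5 reached the mean and 1 was past 2-fold. Cdc25a, the phosphatase that activates cyclin-dependent kinases, had 2.30, 0.638 and 1.08 FPKM in Sham, AngII 4 h and AngII 24 h with IgG and 3.24, 0.252 and 0.505 FPKM with anti-EZH2. Both Sham libraries were above all AngII libraries, with log2 differences of -1.70 and -3.25 after 4 h, then of -1.03 and -2.47 after 24 h. The IgG difference at AngII 24 h was -0.34 in the series table. Summed over the 28 genes the level was 14.7, 14.3 and 9.83 FPKM with IgG (Sham, AngII 4 h, AngII 24 h) and 10.8, 13.8 and 7.23 FPKM with anti-EZH2, so that AngII 24 h was lowest with both, as for the 19 members, but AngII 4 h was highest with anti-EZH2. Ncapd2 alone had between 736 and 1519 FPKM in the series table and made up most of the sum there.

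Markers of the cells that can divide in the adult heart were measured beside these genes. The 5 endothelial markers summed to between 21.0 and 31.3 FPKM in Sham, between 21.0 and 24.9 FPKM in the AngII 4 h libraries, and between 15.8 and 23.9 FPKM in those of AngII 24 h. The 6 fibroblast markers summed to between 63.4 and 74.5, 49.9 and 53.0, and 52.5 and 60.6 FPKM, and the 9 leukocyte markers to between 21.4 and 22.5, 17.6 and 19, and 13.3 and 22.7 FPKM, in the same order of groups. Past 2-fold lower at AngII 24 h against Sham were Cdh5, Col1a1 and Cd68 (1 of 5, 1 of 6 and 1 of 6 markers with a mean of at least 0.5 FPKM), where 4.21% of all genes were. Col3a1 (1 of 6) was lower at AngII 4 h against Sham, where 3.08% of all genes were. Cd68 (1 of 6) was lower at AngII 24 h against AngII 4 h, where 4.53% of all genes were. Cdh5, of endothelial junctions, had 9.83, 6.08 and 4.71 FPKM with IgG and 7.83, 5.26 and 2.43 FPKM with anti-EZH2, and its deposited intervals in Sham lay above those of AngII 24 h with both antibodies. At AngII 24 h against Sham, 4 of the 5 endothelial markers were lower and 1 higher with each antibody. The higher marker was Tek with IgG and Vwf with anti-EZH2. No endothelial or fibroblast marker was at 0, and the neutrophil markers S100a8 and S100a9 were listed at 0 in 5 of the 6 libraries. The erythroid sum was 724 to 920 FPKM in Sham, and reached 587 to 625 FPKM in the AngII 4 h libraries and 810 to 1454 FPKM in those of AngII 24 h. The part of these cells in the course of the mitosis genes was not tested.

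Association with EZH2 was read from the anti-EZH2 against the IgG libraries, over the 3 groups as a block, with limma on log2(FPKM + 0.1) and Benjamini-Hochberg adjustment over all 11444 genes. None of the 9 tested cell cycle genes passed an adjusted p of 0.05, where 0.0262% of all genes did (3 genes, all higher with anti-EZH2), and 1 of the 9 (Ccnd2) had an unadjusted p under 0.05, where 7.10% of all genes did. For Ccnd2 the log2 difference between anti-EZH2 and IgG was -2.86 (SE 0.84, 3 pairs of libraries, lower in 3 of 3), with an adjusted p of 0.697 by limma, the lowest of the 9. By group (Sham, AngII 4 h, AngII 24 h) the difference was -4.06, -0.44 and -4.08, and the Sham and AngII 24 h IgG values are those with the widest intervals. The other 8 genes had differences between -0.59 (Ccnd3, SE 0.295, lower in 3 of 3 groups) and 0.78 (Tpx2, SE 1.11, higher in 3 of 3 groups). A 2-fold difference in Ccnd3, whose SE was the smallest of the 9, would span about as many SE as the difference of Ccnd2, which did not pass. Differences of 2-fold were thus not detectable in any of the 9 genes. The lack of a call therefore does not show a lack of association.

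Under the criteria of a ratio above 2, an FPKM above 1 in the library of the numerator and a value above 0 in all libraries, no member passed in Sham (0 of 6 with the required FPKM, where 16.1% of all such genes passed) or at AngII 4 h (0 of 5, where 13.0% passed). In AngII 24 h, 3 of 7 passed, where 10.9% of all such genes did, and all 3 were replication genes, with anti-EZH2/IgG ratios of 2.19 for Pcna, 2.24 for Mcm6 and 4.76 for Mcm7. In the series table these ratios were 1.09, 4.20 and 8.84, so that Pcna did not hold there. Mcm6 and Mcm7 had 0.484 and 0.611 FPKM with IgG at AngII 24 h, so that the anti-EZH2 library alone gave them the required FPKM. The replication genes outside the criteria did not share this direction. At AngII 24 h Mcm2, Mcm3 and Rrm1 had 0.248, 0.645 and 0.621 FPKM with IgG and 0 with anti-EZH2. Mcm4 had 0.541 and 0.0617 FPKM, Mcm5 was at 0 in both, and Rrm2 was higher with anti-EZH2 (0.410 and 1.45 FPKM). The AngII 24 h anti-EZH2 library is also the one with the largest mitochondrial share, and the median ratio of all genes with the required FPKM was 0.913, 0.987 and 0.727 by group (Sham, AngII 4 h, AngII 24 h). With the antibodies exchanged, Ccnd2 passed in Sham (1 of 6, where 24.2% of genes passed) and at AngII 24 h (1 of 5, where 38.4% passed), and no member did at AngII 4 h (0 of 7, where 14.3% passed). In the other groups the 3 replication genes did not keep this order, with ratios of 0.715 and 1.23 for Pcna, 2.28 and 0.549 for Mcm6, and 1.22 and 0.528 for Mcm7 in Sham and at AngII 4 h.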

How the data were processed

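Per the labels and the study's methods, 2 RIP products per group and antibody were mixed before stranded library preparation, and the authors mapped the reads to mm10 with TopHat2. The authors deposited FPKM per gene in a table of each library, with the bounds of an interval for each FPKM, and FPKM of the whole series in a table normalized separately. The program and annotation behind the FPKM are not given in the sources used here. The tables of each library were used throughout. Left out were 60 genes listed more than once (Rb1 among them), and values below 0.001 FPKM were set to 0. Between 377 and 712 deposited values per library lay outside their own interval, none of them of the 37 genes.

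Fragments were recovered from genes with 1 GENCODE M21 transcript of at least 400 nt, under a fragment length of 200 nt (SD 80, shortest 34), where between 63.1% and 67.7% of low values per library came out whole within 0.1 reads. Since this covered too few values for a count test, FPKM was tested. Genes with a mean of at least 0.5 FPKM were compared, with a pseudocount of 0.1 FPKM, so that fold changes of low genes are understated. The antibody comparison used limma 3.58.1 (R 4.3.3, trend and robust, group as block, two-sided), and limma was tested on simulated data. Other steps ran in Python (3.11.15) with pandas (2.3.3), numpy (2.4.6) and, for exact intervals, scipy (1.17.1). Tried as alternatives were pseudocounts of 0.01 and 1, means of at least 0.1 or 1 FPKM or no filter, division by the median ratio over 4830 genes above 1 FPKM in all libraries, intervals apart, the series table, no block, and leaving out each group.

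The genes given with all values were those with a mean of at least 1 FPKM, those called in any comparison, and Mki67, Top2a, Ccnb1, Cdk1, Rrm2 and Foxm1. Of other lists, called genes were named. The members, the lists and the tests were chosen with earlier results of these data known.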

Additional observations from a re-analysis of the deposited data

Results flagged for a closer look

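Ccnd2 moved in opposite directions in the 2 antibodies between the AngII times. The log2 difference of AngII 24 h against AngII 4 h was 2.60 with IgG and -1.04 with anti-EZH2, with 1 library in each group and antibody, and the difference between them was not tested. In the series table the values were 4.64 and 0.32, so that the anti-EZH2 value changed its direction there. The AngII 24 h IgG value behind the larger difference has a deposited interval from 3.57 to 203 FPKM.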

How the results depend on the processing

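No called member was called in the opposite direction under any alternative. The number of cell cycle genes past 2-fold in both antibodies was 2 at AngII 4 h against Sham, 3 at AngII 24 h against Sham and 0 at AngII 24 h against AngII 4 h. With a mean of at least 0.1 FPKM it was 7, 10 and 3, with no filter on low values 7, 10 and 3, and with a mean of at least 1 FPKM 1, 1 and 0, as more or fewer genes entered. Division by the median ratio left 1 at AngII 4 h, and intervals also apart left 0 in all comparisons. In the series table, where 7 members reached 0.5 FPKM, the calls were of other members: 1 at AngII 24 h against Sham (Ccnd3, higher) and 2 at AngII 4 h (Ccnd2 and Pcna, lower). Cdk6 and Tpx2 were below the mean of 0.5 FPKM there, with log2 differences at AngII 24 h of -1.72 and -2.16 for Cdk6 and -3.30 and -2.12 for Tpx2. The causes of these changes were not tested. Over all genes the counts ran from 112 to 1695 at AngII 4 h (965 as reported), from 48 to 1586 at AngII 24 h against Sham (927) and from 11 to 1552 between the AngII times (746). The median log2 difference of the replication genes at AngII 4 h against Sham was 0.07 in IgG and -0.04 in anti-EZH2, -0.13 and -0.30 after division by the median ratio, and -0.28 and -0.25 in the series table. At AngII 24 h against AngII 4 h in IgG it was 0.25, and 0.53 in the series table. For the start of the cycle it was -0.65 at AngII 24 h against Sham in IgG, -0.26 with a pseudocount of 1 and -0.20 in the series table, and -1.04 at AngII 24 h against AngII 4 h in anti-EZH2, -0.39 with a pseudocount of 1 and 0.00 in the series table. The summed FPKM of the mitosis genes at AngII 4 h against Sham in IgG was 0.460 of Sham, 0.886 without Tpx2 and Cdk1 and 0.278 in the series table. At AngII 24 h against Sham the IgG ratio of 0.0753 was 0.148 without Tpx2 and Cdk1, the anti-EZH2 ratio of 0.251 was 0.414 in the series table, and the anti-EZH2 ratio of 0.447 at AngII 24 h against AngII 4 h was 1.10 in the series table. For anti-EZH2 against IgG no member passed under any alternative tried, and between 0 and 6 genes of all did (3 as reported, 0 without Sham, without AngII 4 h or without AngII 24 h, 0 in the series table and 6 with no block for the group). The antibody comparison was paired by group, and the time comparisons have no replicates to pair. The depth limits most of the list, since 28 of 37 genes had a mean below 0.5 FPKM, and 1 library per group and antibody gives no spread between animals.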
